A study of Mus musculus with 6 samples.

Results

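The genes of regulated exocytosis were followed in whole pituitaries of Jmjd2a (Kdm4a) null females and wild-type littermates. The set holds 52 genes chosen by name: the SNARE proteins, their binding and disassembly factors, synaptotagmins and Doc2 proteins, the Rab3 and Rab27 GTPases with their effectors, priming factors and complexins. Through the RefSeq accession that the array gives for each probe, 51 of the 52 were matched, by 75 of the 55681 non-control probes on the array. Syt5 was not matched and is named only. RNA came from 3 Jmjd2a-/- females (KO) and 3 Jmjd2a+/+ littermate females (WT), each array carrying a separate animal. Mice of both genotypes were virgin, 8 weeks old and on a C57BL6 background, and both had been exposed to soiled bedding of a stud male to start the oestrus cycle 24 h before the glands were taken. The labels do not say which part of the gene was deleted or whether the deletion was confined to any cell type. Jmjd2a, now named Kdm4a, encodes a demethylase of lysines on histone H3.

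Hormone-secreting pituitary cells store their product in granules and release it when calcium enters. Fusion is driven by SNARE proteins, in which a vesicle protein (a VAMP) zips up with a syntaxin and a SNAP-25 type protein on the target membrane. Some synaptotagmins and Doc2 proteins sense calcium, and Rab GTPases bring the granule to the membrane. Priming factors and Munc18-type proteins prepare the SNAREs, complexins bind and regulate them, and NSF with alpha-SNAP takes the spent complexes apart.

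Signals are given as log2 intensity minus the 75th percentile of the same array, so that 0 is the 75th percentile of all spots, and each log2 fold change sets KO over WT, with limma's standard error (SE) on 3 arrays of each genotype. Levels are not compared between genes, and brightness served only to choose among the probes of a gene. Between 34634 and 40567 probes of an array were well above background, and for all 51 genes the probe used was so on all 6 arrays. Kdm4a itself read 1.45, 1.20 and 1.36 on the KO arrays and 2.14, 1.90 and 1.85 on the WT arrays, a log2 fold change of -0.62 ± 0.14 (adjusted p = 0.237). The KO signal of Kdm4a was 64.9% of WT, with p = 0.1 in a two-sided exact permutation test of the 6 arrays, the smallest p it can give. Whether its probe lies inside the deleted part is not stated. Prl, the prolactin transcript that marks the gland, read 8.81 to 9.08 in KO and 8.80 to 9.60 in WT. In RNA of a whole gland, fewer cells of a type and less RNA per cell cannot be told apart. The mean signals of the neutrophil markers were -2.81 to -2.37 in KO and -2.21 to 0.11 in WT, with WT replicate 3 highest, and all 7 markers tested had a log2 fold change below 0, as had 16396 of all 26887 features. Among the endocrine types, the mean signals of the 4 corticotrope markers did not overlap, at 1.88 to 1.98 in KO and 2.12 to 2.49 in WT. Avpr1b, at -0.58 ± 0.11, and Crhr1, at -0.52 ± 0.16, had KO arrays below WT arrays, as had 13.5% of all features. Pomc (-0.23 ± 0.22) and Tbx19 (-0.16 ± 0.15) overlapped. The 2 somatotrope markers averaged 5.16 to 5.26 in KO and 5.26 to 5.75 in WT. Ghrhr was at -0.40 ± 0.15, and Gh, at -0.22 ± 0.23, overlapped. Prl, Pomc and Gh were highest on WT replicate 1, whose 75th percentile was the lowest (171). They were lowest on WT replicate 2, whose 75th percentile was the highest (313). Whether these bright probes were near the upper limit of the signal was not tested, and the corticotrope and somatotrope means include Pomc and Gh. The 4 gonadotrope markers (3 to 3.49 in KO and 2.92 to 3.69 in WT) and the 2 thyrotrope markers (2.34 to 2.72 in KO and 2.42 to 2.84 in WT) overlapped. The part of these cell types in the members' values was not tested.

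Doc2b had the largest fold change of the set, at 2.9 times the WT signal, and 30 of the 51 members lay within 0.2 of 0 on the log2 scale. In the fit over 26887 genes and features, 0 members passed an adjusted p under 0.05, as did 0 features in all (0%), and the members' adjusted p ran from 0.166 to 0.997. At an unadjusted p under 0.05 there were 9 of 51 members (17.6%), against 12.8% of all features. Of these, 4 were higher in KO (Doc2b, Stxbp5, Snap29 and Stx2), which is 7.84% of the members against 3.89% of all features. The other 5 were lower in KO (Rph3al, Stx1a, Unc13a, Vamp7 and Stxbp2), which is 9.8% against 8.92%. With median centring these counts were 7 higher and 0 lower, against 2692 higher and 890 lower of all 26887 features. Single arrays moved them too. There were 2 higher and 2 lower without KO replicate 1 or without KO replicate 2, 2 higher without KO replicate 3, and 2 higher and 3 lower without WT replicate 3. Of all 26887 features, 698 were higher and 1751 lower without KO replicate 1, and 596 and 1564 without KO replicate 2. Without KO replicate 3, 543 features were higher. Without WT replicate 3, 802 were higher and 2457 lower. The median log2 fold change was 0.04 over the members and -0.08 over all features, and 34 of 51 members lay above -0.08. The KO and WT arrays did not overlap for 15 members (29.4%), against 20.6% of all features. In 7 the KO arrays lay above (13.7%, against 7.14% of all features) and in 8 below (15.7%, against 13.5%). For the 42 members at an unadjusted p of 0.05 or more it ran from -0.38 to 0.33, with adjusted p from 0.441 to 0.997.

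**Figure D1:**
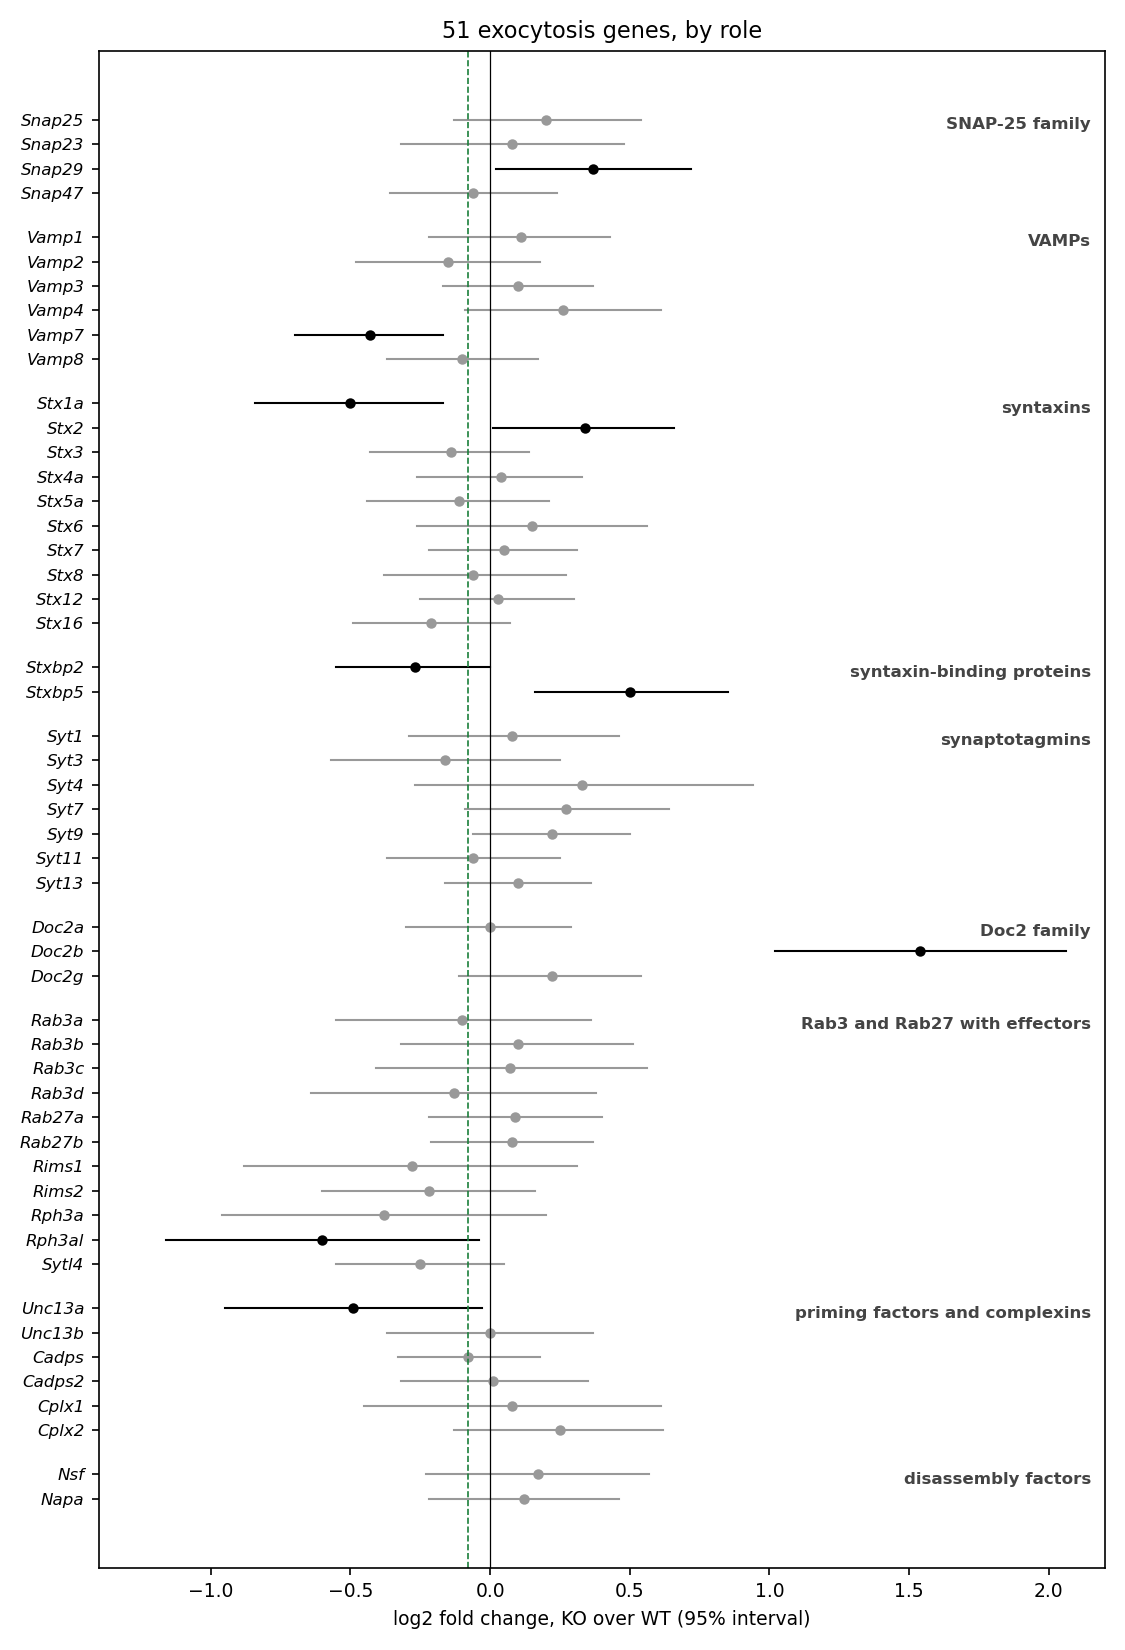
Log2 fold change of 51 exocytosis genes, KO over WT, grouped by role, with the 95% interval from limma (n = 3 arrays per group). Black marks the 9 genes at an unadjusted p under 0.05, grey the others, and the dashed line is the median of all features (-0.08). Doc2b, at 1.54, stands apart from the other genes, which lie between -0.60 and 0.50.

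The calcium sensors gave the largest fold change of the set, in Doc2b. Doc2 proteins are soluble relatives of the synaptotagmins. DOC2B binds calcium and phospholipid and has been studied in spontaneous transmitter release and in insulin secretion. Doc2b read -1.09, -1.35 and -0.97 on the KO arrays, against -2.68, -3.06 and -2.28 on the WT arrays. Every KO array lay above every WT array, and the gap between the groups was wider than the spread within either. The log2 fold change was 1.54 ± 0.22, a KO signal of 2.9 times the WT signal, with an unadjusted p of 2.27e-04 and an adjusted p of 0.166. Its 95% interval ran from 1.02 to 2.06. The size changed with the processing, with 0.74 after normexp background correction and 0.83 in the authors' deposited table. The normexp fit also used median brightness and an offset of 50, and which step moved the size was not tested. With a variance trend and robust fitting the adjusted p of Doc2b was 0.0431, and 27 of 26887 features passed 0.05. Over the 19 alternatives the adjusted p of Doc2b ran from 0.0431 to 0.525.

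The other Doc2 genes were closer to 0. Doc2a read -2.07, -2.17 and -2.35 in KO and -2.24, -2.19 and -2.16 in WT, a log2 fold change of 0.00 ± 0.13 with overlapping groups and a sign that turns under 7 of 19 alternatives. Doc2g, the gamma form, had 0.22 ± 0.14 (adjusted p = 0.51), and -0.01 after normexp correction. The 95% intervals were -0.30 to 0.29 for Doc2a and -0.11 to 0.54 for Doc2g. Doc2b was represented by 1 probe, so no other probe bears on its value.

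**Figure D2:**
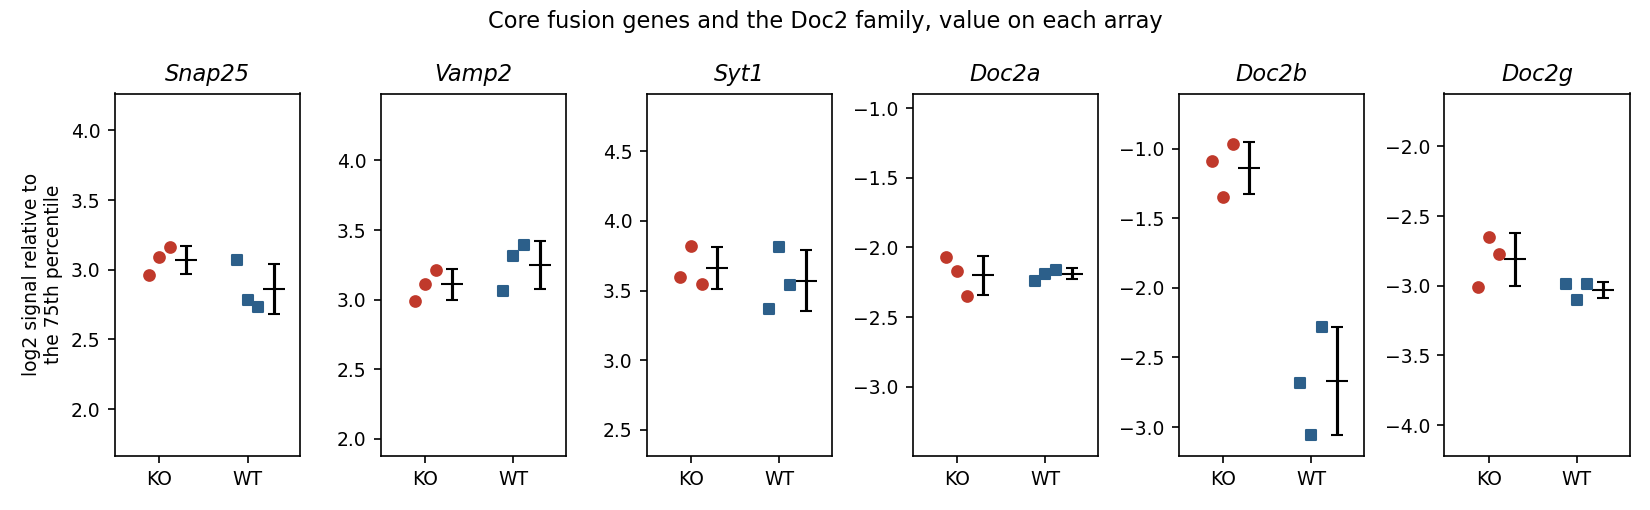
Signal on each array (log2, relative to the array's 75th percentile) for the core fusion genes Snap25, Vamp2 and Syt1 and for Doc2a, Doc2b and Doc2g, KO (circles) left of WT (squares). Bars are mean ± SD (n = 3) and each panel spans the same log2 range. The KO and WT arrays are apart for Doc2b and overlap for the other 5 genes.

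The synaptotagmins, membrane-anchored proteins of which only some sense calcium, were measured for 7 of the 8 listed. Of these, 0 reached an unadjusted p under 0.05 (0%), against 12.8% of all features. Syt1, the fast sensor, read 3.60, 3.82 and 3.55 in KO and 3.37, 3.81 and 3.54 in WT. That is a log2 fold change of 0.08 ± 0.16 with a 95% interval of -0.29 to 0.46. Syt4, a form with a substitution at a calcium-binding residue, had 0.33 ± 0.26, and 0.04 without WT replicate 1, the KO arrays reading 2.77 to 2.95 and the WT arrays 1.94, 2.94 and 2.72. Syt7, a slow high-affinity sensor, had 0.27 ± 0.16 on the probe used and -0.27 ± 0.28 on another. Syt9 (0.22 ± 0.12) and Syt13 (0.10 ± 0.11) had every KO array above every WT array (28.6% of the 7), against 7.14% of all features. Syt3, at -0.16 ± 0.17, and Syt11, at -0.06 ± 0.13, overlapped.

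Among the SNAREs of the target membrane, Stx1a lay below 0 and Snap25 above it. Syntaxin 1A is the plasma-membrane syntaxin of neurons and endocrine cells. Stx1a read -2.25, -2.05 and -1.87 in KO, against -1.66, -1.48 and -1.52 in WT, without overlap. The log2 fold change was -0.50 ± 0.14 (unadjusted p = 0.00968, adjusted p = 0.309), a KO signal of 70.6% of WT. It ran from -0.60 to -0.21 over the alternatives, with -0.21 in the authors' deposited table, and was below 0 in all 19. Its partner Snap25 read 2.96, 3.09 and 3.16 in KO and 3.07, 2.78 and 2.73 in WT, a fold change of 0.20 ± 0.14 (adjusted p = 0.539) with overlapping groups. The 95% intervals were -0.84 to -0.17 for Stx1a and -0.13 to 0.54 for Snap25, and the difference between the genes was not tested.

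Stx1a is also a neuronal gene, so markers of the neural lobe are given beside it. The mean signals over 10 neural lobe and neuronal markers were -1.36 to -1.19 in KO and -1.20 to -0.72 in WT, overlapping slightly, and 7 of 10 had a fold change below 0, against 16396 of all 26887 features. All 10 passed the background filter, Scn7a being well above background on 1 KO and 2 WT arrays and the others on all 6. The lowest fold changes were those of Avp (vasopressin), at -1.21 ± 0.35, and the neuronal tubulin Tubb3, at -1.21 ± 0.37 with overlapping groups. Oxt (oxytocin), at 0.03 ± 0.17, was near 0, and Rax, a marker of neural lobe glia, was at 0.53 ± 0.17. The part of these cells in the values of Stx1a, Unc13a and Rph3a was not tested.

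The other SNAP-25 type proteins are more widely expressed. SNAP-29 takes part in many intracellular fusion steps, autophagosome fusion among them. Snap29 read 2.37, 2.29 and 2.41 in KO and 1.90, 2.24 and 1.82 in WT, the KO arrays lying above, with a fold change of 0.37 ± 0.15 (unadjusted p = 0.0406, adjusted p = 0.376). A second probe gave 0.46 ± 0.15, also without overlap. Snap23, which serves constitutive and non-neuronal secretion, was at 0.08 ± 0.17, and Snap47 at -0.06 ± 0.13.

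The remaining syntaxins act in endosomes, the Golgi and at other surfaces. Stx2, a plasma-membrane syntaxin outside neurons, read 0.99, 0.96 and 1.04 in KO and 0.44, 0.82 and 0.73 in WT (0.34 ± 0.14, unadjusted p = 0.0459, adjusted p = 0.382). The KO arrays lay above the WT arrays on this probe. The other probe of Stx2 read -4.52, -4.58 and -4.73 in KO and -4.54, -4.70 and -4.02 in WT, with a fold change of -0.19 ± 0.20, and the mean of the 2 probes gave 0.07. Stx3 (-0.14 ± 0.12) and the Golgi syntaxin Stx16 (-0.21 ± 0.12) had the KO arrays below the WT arrays. The fold changes of Stx4a, Stx5a, Stx6, Stx7, Stx8 and Stx12 lay between -0.11 and 0.15, with overlapping groups.

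Of the vesicle SNAREs, Vamp7 was lower in KO with little spread, and Vamp2 differed by less than the spread. VAMP7 is the tetanus-toxin-insensitive VAMP of late endosomes and lysosomes. Vamp7 read 1.29, 1.28 and 1.30 in KO, against 1.63, 1.79 and 1.76 in WT. The groups did not overlap (SD 0.01 in KO and 0.09 in WT), and the fold change was -0.43 ± 0.11 (unadjusted p = 0.00653, adjusted p = 0.288). The unadjusted p was above 0.05 under 2 of 19 alternatives, median centring (-0.27, adjusted p = 0.501) and slide row 1 alone (-0.40, adjusted p = 0.354). Vamp2, or synaptobrevin 2, the VAMP of granule and synaptic vesicle release, read 2.99, 3.11 and 3.21 in KO and 3.06, 3.31 and 3.39 in WT. Its fold change was -0.15 ± 0.14 with a 95% interval of -0.48 to 0.18. Vamp8, an endosomal and granule VAMP, had KO arrays below WT arrays by a small margin (-0.10 ± 0.11). Vamp1 (0.11 ± 0.14) and Vamp3 (0.10 ± 0.11) overlapped, and Vamp4, of the Golgi, had 0.26 ± 0.15 on one probe and -0.18 ± 0.15 on another.

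Both syntaxin-binding proteins measured were at an unadjusted p under 0.05, against 12.8% of all features, and in opposite directions. Tomosyn, encoded by Stxbp5, competes with VAMPs for syntaxin and SNAP-25 and holds back fusion. Stxbp5 read -2.24, -2.35 and -2.67 in KO, against -2.95, -2.93 and -2.88 in WT, without overlap. The fold change was 0.50 ± 0.15 (unadjusted p = 0.0109, adjusted p = 0.312), and 0.14 (adjusted p = 0.649) after normexp correction. Stxbp2, or Munc18-2, chaperones syntaxins outside neurons and acts in degranulation of blood cells. It read 1.50, 1.59 and 1.68 in KO and 1.82, 1.85 and 1.92 in WT, also without overlap, with a fold change of -0.27 ± 0.12 (unadjusted p = 0.049, adjusted p = 0.388). Median centring gave -0.11.

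**Figure D3:**
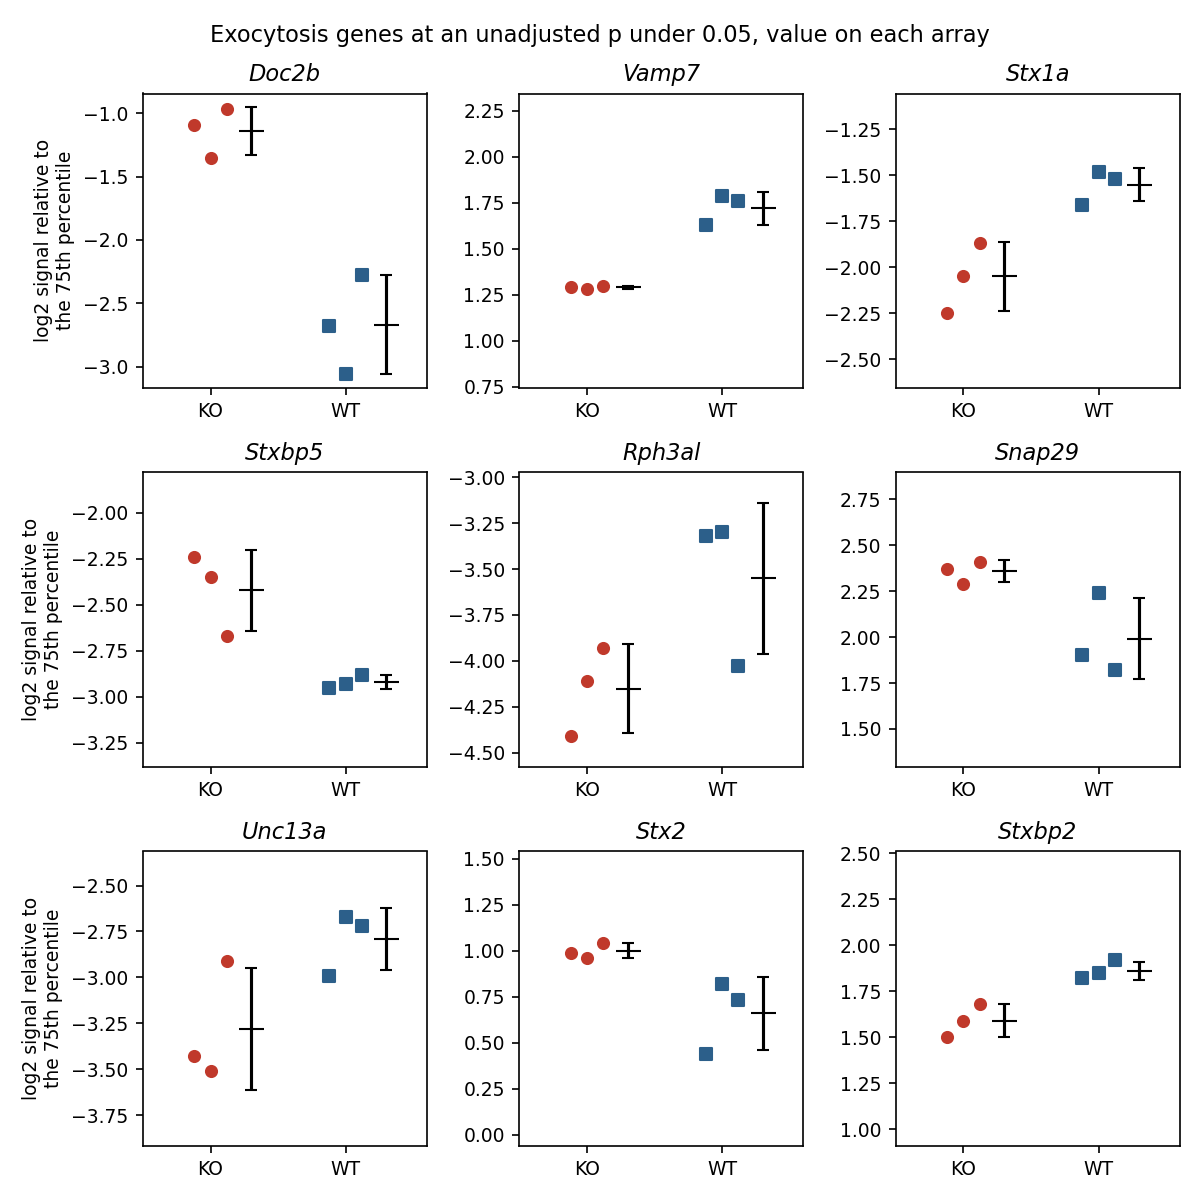
Signal on each array (log2, relative to the array's 75th percentile) of the 9 members at an unadjusted p under 0.05, KO (red circles) left of WT (blue squares), with mean ± SD (n = 3) beside the points. The vertical scale differs between panels. Groups are apart for 7 of the genes and overlap for Rph3al and Unc13a.

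The promoter windows of Stx1a and Stxbp5 are shown because these partners lay on opposite sides of 0. They are RefSeq sequences of GRCm38.p6, from 250 bases before to 50 after the gene start, with capitals for the GC box GGGCGG and the NRF1 motif (GCGC, any base, then TGCGC), searched on both strands. Stx1a lies at chr5:135023232-135023531 on the + strand and Stxbp5 at chr10:9900991-9901290 on the - strand.
Stx1a: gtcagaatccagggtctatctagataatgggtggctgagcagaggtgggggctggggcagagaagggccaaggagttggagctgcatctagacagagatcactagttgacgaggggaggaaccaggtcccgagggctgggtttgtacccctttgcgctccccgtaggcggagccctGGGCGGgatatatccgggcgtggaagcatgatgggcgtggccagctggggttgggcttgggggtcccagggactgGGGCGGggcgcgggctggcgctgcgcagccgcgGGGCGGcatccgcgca
Stxbp5: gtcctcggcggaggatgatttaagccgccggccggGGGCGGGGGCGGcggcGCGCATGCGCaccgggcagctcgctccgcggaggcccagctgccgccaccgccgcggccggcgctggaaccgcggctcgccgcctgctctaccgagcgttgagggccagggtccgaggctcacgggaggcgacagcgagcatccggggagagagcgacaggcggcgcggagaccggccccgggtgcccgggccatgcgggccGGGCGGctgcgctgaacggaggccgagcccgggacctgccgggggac
Both windows held 3 GC boxes, 2 of those of Stxbp5 side by side, and Stxbp5 also 1 NRF1 motif. The GC content was 66.3% for Stx1a and 79% for Stxbp5. Over the 50 RefSeq windows of 40 members, 60% held the GC box, against 35.7% of all 32851 windows of this length. The NRF1 motif was in 16% of the members' windows and 4.6% of all, and the E-box CACGTG in 16% and 7.15%. The TATA box TATAAA was in 6% and 13.6%, and the heat shock element (GAA, any pair of bases, TTC) in 6% and 7.86%. These matches are letters in a window, and binding was not measured.

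The Rab3 and Rab27 group, which ties granules to the membrane, had a median of -0.13, with 7 of 11 below 0, against 16396 of all 26887 features. At an unadjusted p under 0.05 there was 1 (9.09%), against 12.8% of all features. Rph3al encodes Noc2, a Rab3 and Rab27 effector of endocrine granules. It read -4.41, -4.11 and -3.93 in KO and -3.32, -3.30 and -4.03 in WT, so WT replicate 3 lay among the KO arrays. The fold change was -0.60 ± 0.24 (unadjusted p = 0.0386, adjusted p = 0.374). It was -0.31 after normexp correction and -0.84 without WT replicate 3. The effectors Rph3a (-0.38 ± 0.24), Rims1 (-0.28 ± 0.25), Rims2 (-0.22 ± 0.16) and Sytl4, or granuphilin (-0.25 ± 0.13), were also below 0. Rims1 was at -0.07 without WT replicate 1, and Rims2 at 0.00 in the authors' deposited table. Of the 11, the groups did not overlap for Sytl4 alone (9.09%), against 20.6% of all features. The GTPases themselves, Rab3a, Rab3b, Rab3c, Rab3d, Rab27a and Rab27b, lay between -0.13 and 0.10.

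In 10 of these 11 genes the KO arrays lay closer together than the WT arrays, with a median SD of 0.12 in KO and 0.35 in WT. The KO spread was the smaller in 33 of 51 members (64.7%), against 69.7% of all features, whose median SD was 0.15 in KO and 0.23 in WT. Rab3d, a granule GTPase of exocrine and endocrine cells, read 1.88, 1.89 and 1.84 in KO and 1.52, 2.25 and 2.24 in WT. Rab3a, the most studied form in synapses, read 4.10, 4.30 and 4.25 in KO and 3.91, 4.55 and 4.48 in WT. WT replicate 1 was the low array in both genes.

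Among the priming factors, Unc13a was lower in KO with overlapping groups. Munc13-1, its product, opens syntaxin for SNARE assembly. Unc13a read -3.43, -3.51 and -2.91 in KO and -2.99, -2.67 and -2.72 in WT, with KO replicate 3 inside the WT range. The fold change was -0.49 ± 0.19 (unadjusted p = 0.0407, adjusted p = 0.376), and -0.12 in the authors' deposited table. Unc13b, at 0.00 ± 0.16, and the CAPS genes of dense-core granule priming, Cadps at -0.08 ± 0.11 and Cadps2 at 0.01 ± 0.14, were near 0. These are the probes used, and the other probes of Cadps2 gave 0.07 ± 0.17 and -0.63 ± 0.29. Cadps had KO arrays below WT arrays by a small margin, as had 13.5% of all features. The complexins were at 0.08 ± 0.22 for Cplx1 and 0.25 ± 0.16 for Cplx2. The disassembly factors Nsf (0.17 ± 0.17) and Napa, or alpha-SNAP (0.12 ± 0.14), overlapped.

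Several probes were kept for 18 members, and they gave opposite signs in 7: Cadps2, Napa, Snap23, Stx2, Stx6, Syt7 and Vamp4. Over the members' 74 probes kept, 12 were at an unadjusted p under 0.05 (16.2%), against 12.5% of all probes, and the lowest adjusted p, for Doc2b, was 0.209. A probe that was not the brightest reached this level for 4 genes. One probe of Cplx2 that was not the one used read 5.32, 5.39 and 5.63 in KO and 4.95, 5.08 and 4.76 in WT (0.52 ± 0.15), beside 0.25, 0.02 and 0.24 on the other probes. The third probe of Rab3c gave 0.50 ± 0.16, beside 0.07 and 0.13. The second probe of Rims1, a scaffold of the active zone, gave -0.69 ± 0.19 without overlap, beside -0.28 on the one used, and the fourth gene was Snap29 as above. Whether these probes measure different transcripts was not tested.

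**Figure D4:**
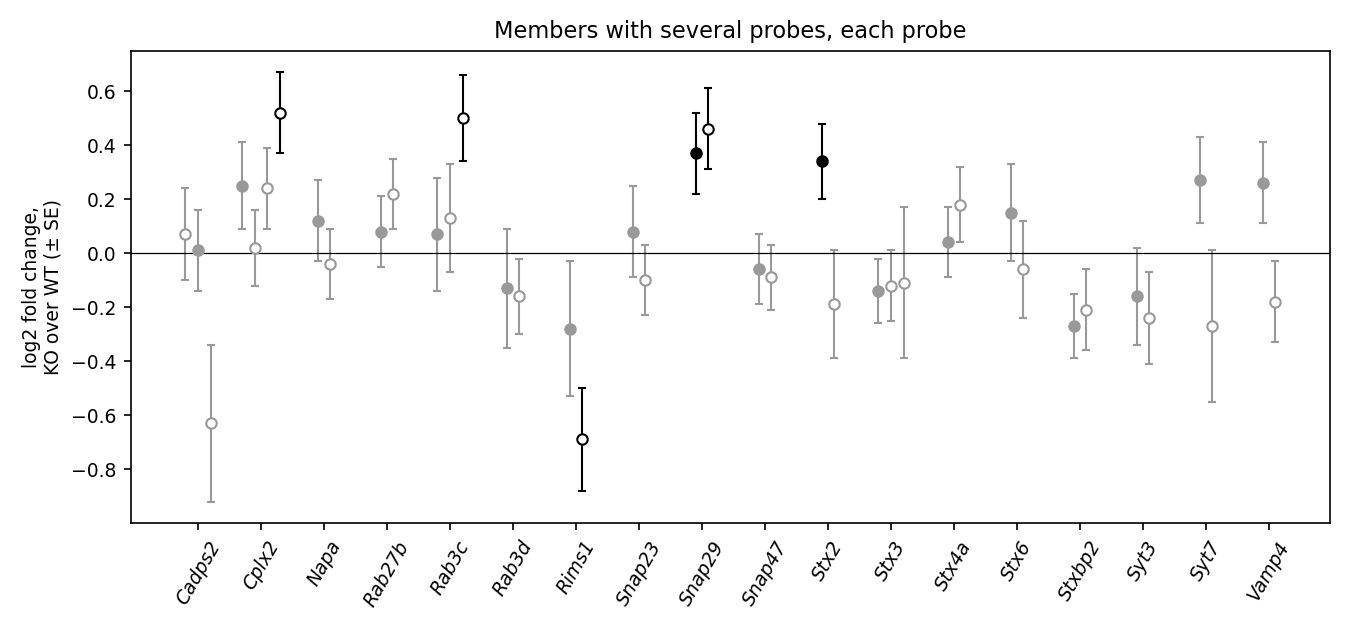
Log2 fold change, KO over WT, of each probe for the 18 members with several probes kept, with SE bars (n = 3 arrays per group). Filled points mark the probe used per gene, open points the others, and black those at an unadjusted p under 0.05 in the fit over probes. The probes of 7 genes, Stx2, Syt7 and Vamp4 among them, lie on both sides of 0.

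A further list, the other exocytosis genes, held genes of docking, priming and fusion and of vesicle traffic more widely. Bsn and Syt15 were the highest and Rims3 and Ppfia4 the lowest of those named by the smallest p. Of 89 listed, 81 were tested, and 8 (9.88%) were at an unadjusted p under 0.05, against 12.8% of all features. In each direction there were 4 (4.94%), against 3.89% of all features higher and 8.92% lower in KO, and the median was 0.03. The higher count was 7 without WT replicate 2, and the lower count 2 without KO replicate 1, KO replicate 3 or WT replicate 3. Of all 26887 features, 2063 were higher without WT replicate 2. The features lower without the 3 other arrays were 1751, 1426 and 2457. Median centring gave 10 higher and 0 lower, against 2692 higher and 890 lower of all 26887 features. Syt15, an atypical synaptotagmin, had 0.55 ± 0.14, the presynaptic scaffold Bsn (bassoon) 0.57 ± 0.16, and the exocyst subunit Exoc1 0.42 ± 0.12. On the lower side were the liprin Ppfia4 (-0.52 ± 0.15), the exocyst subunit Exoc6 (-0.43 ± 0.15) and Rims3 (-0.55 ± 0.19). The adjusted p of these 6 genes ran from 0.272 to 0.348. The 2 exocyst subunits of this group lay on opposite sides of 0.

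The 4 members with the smallest unadjusted p, picked on these same arrays, kept their direction under all 19 alternatives. Their groups did not overlap, so leaving out an array could not turn the sign. Snap29, Stx2, Stxbp2 and Unc13a also kept theirs in all 19, and Rph3al in 18 of 18. So did members with a larger p, Snap25 and Vamp3 among them. Doc2b was at an unadjusted p under 0.05 in all 19, Vamp7 and Stxbp5 in 17 and Stx1a in 16. The other members at that level reached it under fewer alternatives, Snap29 under 11 of 19, Stx2 under 9, Unc13a under 7, Stxbp2 under 4, and Rph3al under 8 of 18. In the first row of the slide, which held 2 arrays of each genotype, the log2 fold changes were 1.45 for Doc2b, 0.46 for Stxbp5, -0.47 for Stx1a and -0.40 for Vamp7. The second row held 1 array of each and gave no test.

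**Figure D5:**
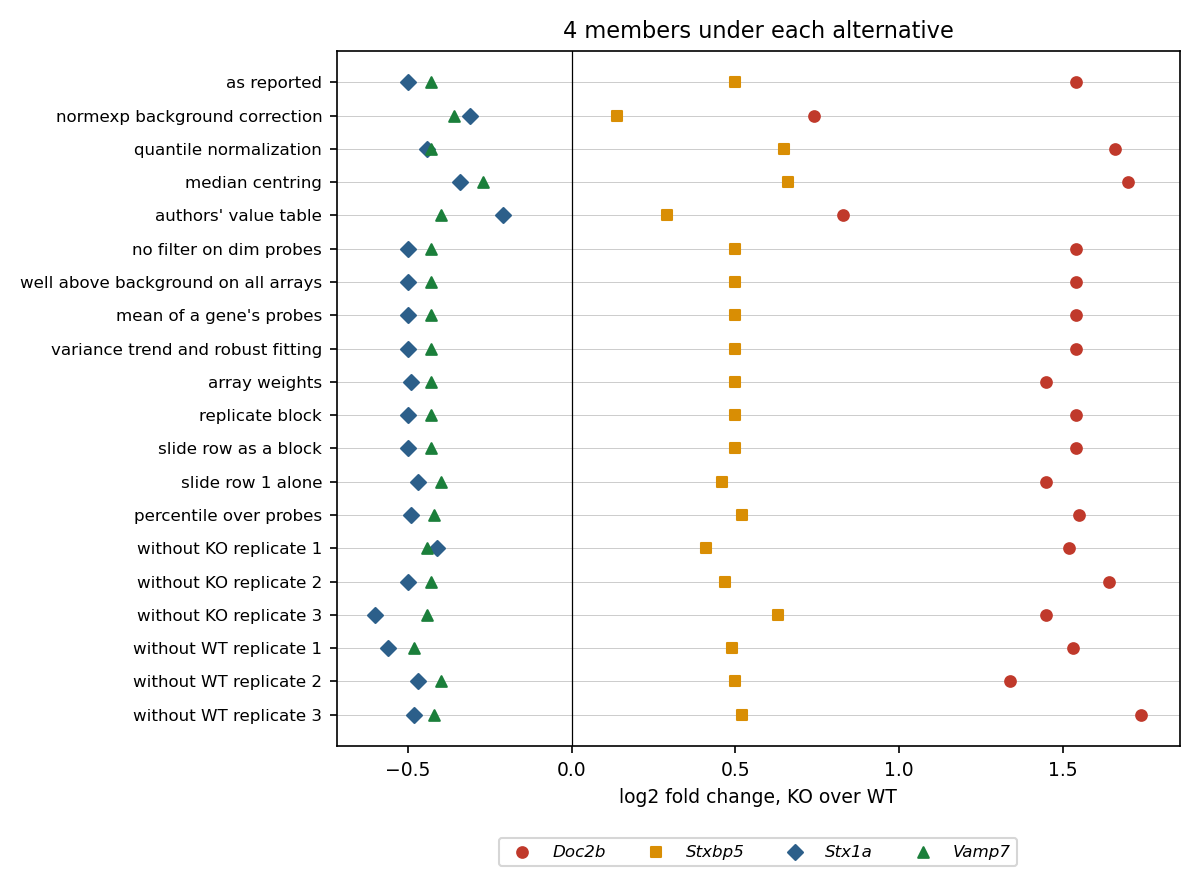
Log2 fold change, KO over WT, of Doc2b, Stxbp5, Stx1a and Vamp7 as reported and under 19 alternatives in processing or left-out arrays. Each point is 1 fit. Doc2b lies between 0.74 and 1.74 and the others keep to their side of 0, Stxbp5 coming closest to it at 0.14 after normexp correction.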

How the data were processed

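Pituitary RNA was labelled with Cy3 and hybridised to one-colour Agilent arrays, per the labels. Per the file headers, Agilent Feature Extraction 11.0.1.1 wrote the deposited intensity values (gProcessedSignal), already background-subtracted, from 1 slide. The authors' deposited table holds log2 values of 26625 probes. How they were normalized is not stated in the labels. Limma is named, with no version, in the submitters' processing notes. Here, control and outlier-flagged spots were left out, log2 spots were averaged per probe, and the 75th percentile of an array's spots was taken off. A probe stayed if 3 or more arrays read it well above background (36739 of 55681), and the brightest stood for its gene. RefSeq accessions (GRCm38.p6) gave symbols to 27656 probes. Tables were read with data.table version 1.17.8. KO and WT were compared with limma 3.58.1 in R 4.3.3 (two-sided lmFit and eBayes), p-values being adjusted by Benjamini-Hochberg over 26887 features, and the fit was tested on simulated data. Alternatives changed background (normexp, offset 50, on median brightness), normalization, filter, probe choice, variance model, blocks, or left out an array. The percentile over probe means was added after seeing the data. The members and lists were chosen with earlier results of these data known. Values on every array are given for members at an unadjusted p under 0.05, for Snap25, Vamp2, Stx1a and Syt1, and for members with a probe at that level and another of opposite sign (Stx2). Up to 6 other exocytosis genes with the smallest p are named. Other values were picked for their spread or second probes after being seen. The number of arrays limits the precision.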

Additional observations from a re-analysis of the deposited data

How the results depend on the processing

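The number of arrays limits every count, and 0 of 51 members passed the adjusted threshold except with a variance trend and robust fitting, where 1 did (Doc2b). Of all 26887 features, 27 passed under that setting. Features but no member passed under others: 24 with normexp, 16 with median centring and 1 without WT replicate 1. The same held for 27 of 20832 features in the authors' value table and 11 of 24308 well above background on all arrays. The 4 members higher in KO at an unadjusted p under 0.05 became 7 with median centring, 7 probes with each probe alone, and 2 with no filter on dim probes, the replicate block, slide row as a block or slide row 1 alone, with 2 to 4 when an array was left out. The 5 lower in KO became 3 with quantile normalization, the authors' value table, the variance trend, array weights, the replicate block or slide row as a block, 2 with no filter, 1 with slide row 1 alone and 0 with median centring, with 2 to 5 when an array was left out. The 4 other exocytosis genes higher in KO became 10 with median centring and 11 in the authors' value table, and 3 to 7 when an array was left out. The 4 lower became 2 with normexp, 1 with quantile normalization and 0 with median centring, and 2 to 6 when an array was left out. Of all 26887 features at an unadjusted p under 0.05, 1046 were higher and 2399 lower as reported. There were 2692 and 890 with median centring, 1819 and 1368 with quantile normalization, and 1097 and 2342 with normexp. Slide row 1 alone gave 1447 and 2458, and slide row as a block 884 and 2054. The replicate block gave 851 and 2013, the variance trend 1336 and 2509, and array weights 1266 and 2496. The authors' value table gave 1587 and 1398 of 20832 features, no filter 867 and 3361 of 36983, and each probe alone 1337 and 3262 of 36739 probes. When an array was left out, the features ran from 543 to 2063 higher and from 1426 to 3445 lower. Median centring moved the median of all features to 0.09 from -0.08, and the lower share of features at an unadjusted p under 0.05 was 69.6% as reported, 24.8% with median centring, 42.9% with quantile normalization and 46.8% in the authors' value table. Same-numbered arrays shared a slide row. Their correlations of deviations were 0.15, -0.18 and -0.08, which with 3 arrays per group cannot exclude a pairing. The replicate numbers were taken as names, so the fit as reported has no block, and the counts with the replicate block are given only here.

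The members' log2 fold changes that changed sign follow. They were within 0.2 of 0 as reported except for Vamp4 (0.26), Doc2g (0.22) and Rims2 (-0.22). With median centring the values were 0.11 for Snap47, 0.01 for Vamp2, 0.06 for Vamp8, 0.02 for Stx3, 0.05 for Stx5a, 0.10 for Stx8, 0.00 for Syt3, 0.10 for Syt11, 0.16 for Doc2a, 0.07 for Rab3a, 0.03 for Rab3d and 0.09 for Cadps. With normexp they were 0.01 for Snap47, 0.00 for Vamp1, -0.13 for Vamp4, -0.01 for Stx12, -0.01 for Doc2g and -0.06 for Cplx1. In the authors' value table they were -0.17 for Vamp4, -0.05 for Stx12, 0.01 for Doc2a, 0.00 for Rab3a and 0.00 for Rims2. For Vamp4 both settings took its other probe as the brightest. Quantile normalization gave 0.09 and the percentile over probes 0.01 for Doc2a, the mean of probes gave -0.01 for Snap23 and -0.18 for Cadps2, array weights gave 0.00 for Unc13b and -0.01 for Cadps2, and slide row 1 alone gave -0.03 for Snap23. When an array was left out the range was -0.03 to 0.23 for Snap23, -0.12 to 0.00 for Snap47, -0.03 to 0.11 for Stx4a, -0.16 to 0.00 for Stx8, -0.03 to 0.07 for Stx12, -0.02 to 0.20 for Syt1, -0.07 to 0.07 for Doc2a. It was -0.30 to 0.02 for Rab3a, -0.03 to 0.25 for Rab3b, -0.15 to 0.21 for Rab3c, -0.14 to 0.12 for Unc13b, -0.07 to 0.10 for Cadps2 and -0.13 to 0.22 for Cplx1. The cause of these shifts was not tested.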
